A study of Rattus norvegicus with 19 samples.

Results

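Expression of 9 genes of the interferon response was followed in rat somatosensory cortex: the transcription factors Irf1, Irf7, Irf9 and Stat2, the antiviral effectors Isg15, Ifit3, Mx1 and Mx2, and the guanylate-binding protein Gbp2. They were chosen by name and are 9 of the 14217 genes that a probe set of the array names alone. A probe set is a group of short DNA probes that read 1 transcript. The 9 genes have 12 probe sets, because Irf9, Stat2 and Mx2 have 2 each, and each of those genes is given by its brighter probe set, by the mean of all 19 arrays. A level here is a log2 signal, so that a difference of 1 is a 2-fold difference, and levels of a gene are compared between arrays of a set, never between genes. A log2 signal of 4 was taken as the floor below which a signal is read as low. All 9 genes were above it on at least 2 arrays of each set and were tested in both.

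The animals were adult male Wistar rats, and the agents reached the cortex in artificial cerebrospinal fluid. Set 1 is a time course with a single array per point. Its agents were DOC, the detergent-like bile salt sodium deoxycholate, given at 2 mM to open the barrier between blood and brain and read at 7, 24 and 48 h; albumin at 0.1 mM, the main protein of serum; and the growth factor TGF-β1 at 10 ng/ml. Albumin and TGF-β1 were read at 8, 24 and 48 h, and a sham-operated rat at 24 h. Set 2 was sampled at 24 h only: 3 rats with albumin (0.1 mM), 4 with albumin and blockers of TGF-β receptors, and 2 sham-operated rats. As blockers the rats received SB431542 (100 µM), which inhibits the type 1 receptor kinase, and an antibody (50 µg/ml) against TGF-β receptor 2. The labels describe the sham rats only as operated, and no sham rat received the blockers. The median signal of an array was 5.09 to 5.17 in set 1 but 6.05 to 6.18 in set 2, so differences were taken within a set. In set 2, albumin replicate 2 resembled the other arrays least: its correlation with them had a median of 0.981, against 0.992 to 0.995 for the rest. The 8 neuron markers averaged log2 signals of 11.60 to 12.88 and the 6 astrocyte markers 11.68 to 13.10 over the groups, so the cell types that define cortex were detected. Of 9 measured lymphocyte markers, 8 in set 1 and all 9 in set 2 were below 4 on every array. Precision is limited here by how few arrays there are, and in pieces of tissue fewer cells of a type and less RNA per cell cannot be told apart.

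Interferons are cytokines that warn cells of infection and injury. Type I interferons act through receptor-bound Janus kinases on a complex that holds STAT2 and IRF9 and binds the interferon-stimulated response element (ISRE) of target genes, while interferon-gamma acts at the gamma-activated site (GAS), with Irf1 among the first genes switched on. The products include IRF7, which drives more interferon, the ubiquitin-like protein ISG15, the RNA-binding IFIT proteins, and the Mx and guanylate-binding GTPases, and in brain they are made by microglia, astrocytes, endothelium and invading leukocytes. The same genes can be driven without infection, by nucleic acids set free from damaged cells or by inflammatory cytokines.

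Promoters are shown because both motifs are the elements through which these genes are known to be switched on. RefSeq promoters of the GRCr8 assembly, 250 bases before to 50 after the start site, matched 7 of the 9 genes; Mx2 and Isg15 were not matched. Each was searched on both strands for the ISRE core, which is GAAA, 2 bases of any kind, and GAAA again, and for the GAS letters TTCNNNGAA. The ISRE core was in 3 of the 7, against 3.92% of 33469 rat promoters of the same length, and GAS letters were in 2 of the 7, against 8.87%. Neither motif was in the windows of Stat2 and Mx1, and no window held both, so no matches overlapped. Capitals mark the match. In Irf7 (chr1:205799974-205800273, minus strand), Ifit3 (chr1:241527076-241527375, plus strand) and Gbp2 (chr2:234005477-234005776, plus strand) the capitals spell the reverse complement of the ISRE core, since the match is on the strand opposite to the gene. They lie 69 to 60 bases before the start in Irf7, 44 to 35 in Ifit3 and 31 to 22 in Gbp2. In Irf1 (chr10:38417685-38417984, plus strand) and Irf9 (chr15:33065586-33065885, plus strand) they mark GAS letters, 142 to 134 and 99 to 91 bases before the start. A match is a description of letters, not a shown binding site.
Irf7: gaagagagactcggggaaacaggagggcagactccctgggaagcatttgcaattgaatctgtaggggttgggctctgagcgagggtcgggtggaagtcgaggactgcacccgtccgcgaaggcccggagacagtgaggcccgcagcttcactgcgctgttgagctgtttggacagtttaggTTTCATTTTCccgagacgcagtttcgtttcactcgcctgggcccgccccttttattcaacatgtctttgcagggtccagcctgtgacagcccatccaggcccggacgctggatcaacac
Ifit3: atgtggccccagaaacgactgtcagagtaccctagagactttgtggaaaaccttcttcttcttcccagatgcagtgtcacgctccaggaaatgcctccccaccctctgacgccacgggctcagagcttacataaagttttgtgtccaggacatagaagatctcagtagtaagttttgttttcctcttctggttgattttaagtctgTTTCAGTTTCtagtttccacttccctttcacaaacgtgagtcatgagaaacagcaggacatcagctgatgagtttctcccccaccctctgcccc
Gbp2: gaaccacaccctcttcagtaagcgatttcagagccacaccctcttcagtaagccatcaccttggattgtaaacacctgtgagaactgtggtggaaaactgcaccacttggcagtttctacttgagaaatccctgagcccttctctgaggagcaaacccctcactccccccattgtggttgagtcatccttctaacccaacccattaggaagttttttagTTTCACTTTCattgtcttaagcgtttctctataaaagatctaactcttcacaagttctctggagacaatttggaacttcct
Irf1: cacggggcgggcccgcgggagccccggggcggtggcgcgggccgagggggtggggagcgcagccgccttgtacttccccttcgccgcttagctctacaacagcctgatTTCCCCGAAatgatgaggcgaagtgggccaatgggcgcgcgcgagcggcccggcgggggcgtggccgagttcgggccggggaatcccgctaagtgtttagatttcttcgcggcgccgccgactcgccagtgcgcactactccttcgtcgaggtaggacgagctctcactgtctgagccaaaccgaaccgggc
Irf9: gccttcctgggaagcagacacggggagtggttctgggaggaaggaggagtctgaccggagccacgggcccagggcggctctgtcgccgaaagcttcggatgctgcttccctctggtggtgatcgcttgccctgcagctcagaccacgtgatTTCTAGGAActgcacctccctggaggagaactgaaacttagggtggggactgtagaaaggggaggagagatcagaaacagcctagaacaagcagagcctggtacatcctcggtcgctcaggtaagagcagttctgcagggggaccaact

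The first comparison asked what 24 h of albumin did to the interferon genes in set 2. None of the 9 passed the test, limma with p-values adjusted by Benjamini-Hochberg across the 10329 genes tested, in which 1.33% of genes passed at an adjusted p under 0.05. At an unadjusted p under 0.05 there were 2, Irf1 and Irf9, both higher with albumin, where 21.4% of all genes reached that level in either direction. With the probe sets used, the same 2 genes had albumin arrays wholly above both sham arrays, as did 22.2% of genes. Stat2 had them too with its other probe set. The median difference of the 9 genes was 0.75 against 0.02 for all genes tested, with 7 of 9 above 0, as were 52.3% of all genes.

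Among the transcription factors, Irf9, the DNA-binding part of the type I interferon complex, had log2 signals of 9.32, 8.81 and 9.72 in the 3 albumin rats, 8.08, 8.09, 8.65 and 8.10 with the blockers added, and 7.93 and 8.18 in the sham rats. With the probe set used, every albumin array lay above every other array of the set, and the blocker arrays overlapped the sham arrays. The albumin difference was 1.23 ± 0.27 (SE, n = 3 against 2; adjusted p = 0.0671). The other probe set of Irf9 gave 7.79, 6.96 and 8.33 with albumin against 6.17 and 6.13 in sham, again with no overlap. Its blocker arrays were at 6.27, 6.40, 7.25 and 6.50. All of these were above both sham arrays, and blockers replicate 3 was above albumin replicate 2. The call for Irf9 turned on the choice of arrays. Without albumin replicate 2 the difference was 1.46 ± 0.23 (adjusted p = 0.0399). With all 19 arrays in 1 fit it was 1.15 ± 0.27 (adjusted p = 0.016). That fit spans both sets, with a term for the set and with 1 albumin and 1 sham term for both.

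Irf1, an early target of interferon-gamma, had 6.14, 7.19 and 6.79 with albumin, 5.31, 5.98, 7.03 and 5.85 with the blockers, and 5.39 and 5.22 in sham. Albumin again stood clear of sham, while the blocker arrays ran from the sham level to within the albumin range. The albumin difference was 1.40 ± 0.47 (adjusted p = 0.151). In the fit of all 19 arrays it was 1.56 ± 0.37 (adjusted p = 0.016). Stat2, the partner of IRF9, had 7.94, 7.27 and 8.37 with albumin, 7.47, 7.50, 7.76 and 7.20 with the blockers, and 6.99 and 7.47 in sham. Albumin replicate 2 lay between the sham arrays, and the difference was 0.63 ± 0.31 (adjusted p = 0.283). The other probe set of Stat2 gave 7.30, 6.59 and 7.53 with albumin against 6.52 and 6.57 in sham. There every albumin array was above sham, albumin replicate 2 narrowly.

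Irf7, the amplifier of interferon production, did not share this order. Its signals were 6.83, 6.81 and 9.39 with albumin, 6.11, 7.37, 7.63 and 8.14 with the blockers, and 8.01 and 7.62 in sham. Of the albumin arrays, 2 were below both sham arrays and the third was the highest of the set. The mean difference was −0.14 ± 0.83 (adjusted p = 0.935) and was above 0 without albumin replicate 1 (0.28), albumin replicate 2 (0.30) or sham replicate 1 (0.06).

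The antiviral effectors followed the same split among the albumin rats. Isg15, which is attached to other proteins as a tag, had 6.52, 5.96 and 8.92 with albumin, 5.58, 6.12, 7.65 and 7.34 with the blockers, and 6.25 and 6.51 in sham. Replicate 3 was far above sham and the other albumin arrays lay beside it; the difference was 0.75 ± 0.90 (adjusted p = 0.632), and −0.14 without albumin replicate 3. Ifit3, of the family that binds foreign RNA, had 2.80, 4.13 and 7.69 with albumin, 2.77, 2.81, 4.26 and 2.89 with the blockers, and 2.89 and 3.25 in sham. Only 3 of the 9 arrays were above the floor of 4, and the difference was 1.80 ± 1.21 (adjusted p = 0.409).

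Mx1, a nuclear GTPase active against influenza viruses in rodents, had 5.16, 5.52 and 7.30 with albumin, 3.81, 4.42, 5.34 and 5.75 with the blockers, and 5.19 and 6.62 in sham. The sham rats differed from each other by more than the group means did, and the albumin difference was 0.09 ± 0.78 (adjusted p = 0.956). It was −0.57 without albumin replicate 3 and −0.63 without sham replicate 1. Mx2, its cytoplasmic relative, had 6.91, 5.92 and 8.32 with albumin, 5.81, 5.90, 7.28 and 7.56 with the blockers, and 7.61 and 7.45 in sham. As with Irf7, 2 albumin arrays were below both sham arrays and 1 above them, for a difference of −0.48 ± 0.75 (adjusted p = 0.72) and 0.09 without albumin replicate 2.

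Gbp2, a GTPase that acts on intracellular pathogens and is also known from reactive astrocytes, had 8.20, 7.28 and 9.85 with albumin, 7.61, 7.84, 9.18 and 7.75 with the blockers, and 6.61 and 7.63 in sham. The groups overlapped through albumin replicate 2 and sham replicate 2, and the difference was 1.32 ± 0.75 (adjusted p = 0.336).

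**Figure D1:**
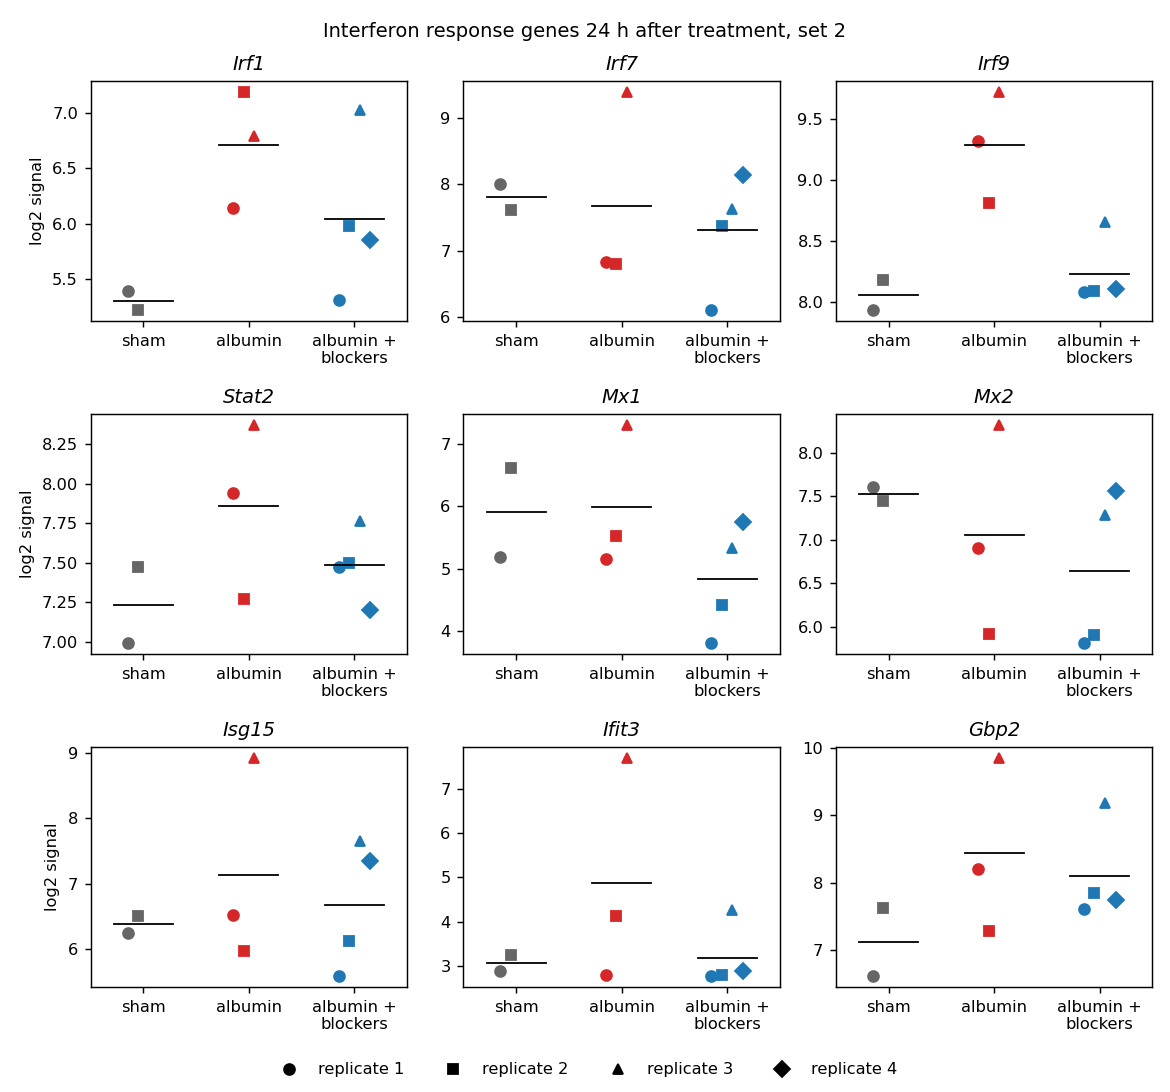
Log2 signal of the 9 genes on the 9 arrays of set 2 at 24 h, by group; point shapes give the replicate number and black lines the group means. Albumin replicate 3 (red triangle) is the highest array for every gene but Irf1. With the probe sets drawn, Irf9 is the gene whose 3 albumin arrays lie above all others.

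The albumin rats were unequal. Albumin replicate 3 was the highest array of set 2 for 8 of the 9 genes, all but Irf1, which peaked in albumin replicate 2. This count was made after the values were seen; 6.98% of all genes tested had their highest signal in replicate 3 and 30.2% in replicate 2. Against the mean of the sham arrays, albumin replicate 3 had all 9 genes higher, 8 of them at least 2-fold, with a median of 1.57, while 3.99% of all genes were at least 2-fold higher there. The range was from 0.79 in Mx2 to 4.62 in Ifit3, whose sham signals were below the floor and whose difference from the floor was 3.69. On the same array 1.82% of all genes were at least 2-fold lower. Albumin replicate 1 had 2 of 9 at least 2-fold higher and none lower (3.20% and 1.78% of all genes), and replicate 2 had 2 higher and 2 lower (8.39% and 9.05%). Without replicate 3 the median albumin difference of the 9 genes was 0.37, with 5 of 9 above 0, and without replicate 2 it was 1.16, with 9 of 9. Irf1 and Irf9 had differences of 1.36 and 1.01 without replicate 3.

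Neutrophil markers were also highest on this array. Of 8 listed markers 6 were measured, and their mean log2 signal was 6.04, 4.65 and 7.77 in albumin replicates 1, 2 and 3, 5.30, 4.27, 6.02 and 4.04 with the blockers, and 3.00 and 4.42 in sham. In albumin replicate 3, S100a8 was at 9.96, S100a9 at 11.43 and the granulocyte receptor Csf3r at 8.41, while Mmp8 and Ly6g6c were below 4 on all 9 arrays. The list also holds Lcn2, which reactive astrocytes make. Microglia and macrophage markers averaged 7.11 to 7.66 with albumin and 6.66 to 7.47 in sham, and meningeal markers 5.72 to 7.05 with albumin against 8.95 to 9.14 in sham. The part of these cells in the interferon gene signals was not tested.

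The second comparison asked what the TGF-β receptor blockers changed in the presence of albumin. None of the 9 genes passed, where 0.0194% of all genes did. Irf9 alone had an unadjusted p under 0.05, where 16.6% of genes had one. With the probe sets used, it alone had blocker arrays wholly below the albumin arrays, as did 8.71% of genes. Irf9 was lower by a log2 difference of −1.05 ± 0.23 (SE, n = 4 against 3; adjusted p = 0.122), and its blocker arrays of 8.08 to 8.65 lay below the lowest albumin array at 8.81. With its other probe set, blockers replicate 3 at 7.25 lay above albumin replicate 2 at 6.96, so that separation depends on the probe set. None of the 9 differences was above 0, where 49.4% of genes were, with a median of −0.46, where the median of all genes was −0.0026. The largest were in Ifit3 (−1.69 ± 1.02, adjusted p = 0.407) and Mx1 (−1.16 ± 0.66, adjusted p = 0.387).

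Among the other 6, Irf1 had −0.66 ± 0.40 (adjusted p = 0.406), Stat2 −0.38 ± 0.26 (adjusted p = 0.456) and Isg15 −0.46 ± 0.75 (adjusted p = 0.763). Mx2 had −0.41 ± 0.62, Irf7 −0.36 ± 0.69 and Gbp2 −0.35 ± 0.63, with adjusted p of 0.741 to 0.8. The shared sign rested on albumin replicate 3: without it 4 of 9 differences were above 0 and the median was −0.12, with Irf7 at 0.50, Isg15 at 0.43, Gbp2 at 0.36 and Mx2 at 0.22. Irf7 was also above 0, at 0.04, without blockers replicate 1.

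With albumin and blockers together, set against sham, no gene of the 9 passed and none had an unadjusted p under 0.05, where 0% and 4.30% of all genes did. With the probe sets used, no gene of the 9 had blocker arrays wholly above or below both sham arrays, as 11.6% and 8.32% of genes had. With their other probe sets, Irf9 (6.27 to 7.25 against 6.17 and 6.13) and Stat2 (6.71 to 6.73 against 6.52 and 6.57) had blocker arrays wholly above sham. The differences ran from −1.07 ± 0.74 in Mx1 to 0.98 ± 0.71 in Gbp2, with a median of 0.18 and every adjusted p at 1. The median was −0.04 without blockers replicate 3 and −0.68 with the replicate block, so its sign is not settled. Within the blocker group, replicate 3 had 4 of 9 genes at least 2-fold above sham, namely Irf1 (1.73), Isg15 (1.27), Ifit3 (1.19) and Gbp2 (2.06), against 2.38% of all genes. Replicates 1, 2 and 4 had none of the 9 that high, where 0.842%, 1.62% and 0.775% of genes were. At least 2-fold below sham were 3 genes in replicate 1 (Irf7 −1.70, Mx1 −2.09 and Mx2 −1.72) and 2 in replicate 2 (Mx1 −1.48 and Mx2 −1.63), where 0.794% and 0.833% of all genes were. Replicates 3 and 4 had none that low. The mean of the neutrophil markers was also highest of the blocker group in replicate 3, at 6.02. These 3 comparisons share their groups and are not independent.

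The third comparison followed each agent over time in set 1, where each point is a single rat. In albumin the effectors were highest at 8 h, whereas Irf9 and Stat2 were highest at 24 h. The highest array of set 1 was albumin at 8 h for 6 of the 9 genes (Irf7, Mx1, Mx2, Isg15, Ifit3 and Gbp2). Of all genes, 3.54% peaked there, and the count was made after the values were seen. Mx1 and Ifit3 were each above the floor on only 2 arrays of set 1, all with albumin. Both thus entered the test through the group in which they are high. Irf9 and Stat2 peaked with albumin at 24 h, as did 8.14% of genes, and Irf1 with DOC at 24 h, as did 15.5%. The other probe set of Stat2 peaked instead with DOC at 48 h, at 6.69. Its albumin signals at 8, 24 and 48 h were 6.54, 6.48 and 6.55, so the 24 h peak of Stat2 depends on the probe set.

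Isg15 was at 9.26, 5.49 and 4.71 at 8, 24 and 48 h of albumin, against 4.74 in the sham rat. With DOC it was at 2.28, 3.13 and 5.83 at 7, 24 and 48 h, and with TGF-β1 at 3.15, 5.51 and 3.98 at 8, 24 and 48 h. Its early albumin signal was 4.53 above sham on the log2 scale, and the early signals with DOC and TGF-β1 were below the floor of 4. Ifit3 was at 7.77, 5.07 and 2.85 over the times of albumin and at 3.12 in sham. It was at 2.88, 2.88 and 3.89 with DOC and at 2.77, 2.85 and 2.86 with TGF-β1. Ifit3 was thus above the floor on 2 arrays of set 1, both with albumin, and at 8 h was 4.65 above sham, or 3.77 above the floor, under which the sham signal lay.

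Mx1, too, was highest with albumin at 8 h, with 6.08, 3.79 and 4.38 over the times of albumin and 3.07 in sham. Its DOC signals were 3.24, 3.02 and 3.70 and its TGF-β1 signals 3.06, 3.50 and 3.85, all below the floor. The 8 h albumin array was 3.01 above sham, or 2.08 above the floor. Mx2 behaved otherwise: sham, at 7.60, was level with albumin at 8 h, at 7.61. The later albumin signals were 4.40 and 5.85, those of DOC 5.01, 4.71 and 6.03, and those of TGF-β1 5.99, 4.33 and 6.17. Every treated array other than albumin at 8 h was thus below sham, by up to −3.27 with TGF-β1 at 24 h, whereas a second probe set of Mx2, described further on, had every treated array above sham.

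Gbp2 was at 8.84, 6.31 and 7.16 over the times of albumin and at 4.33 in sham. With DOC it was at 5.20, 5.49 and 8.54 and with TGF-β1 at 5.22, 6.14 and 6.89. All 9 treated arrays were above sham, and DOC and TGF-β1 were highest at 48 h, at 4.20 and 2.56 above it. Irf7 was at 7.47, 6.37 and 5.03 over the times of albumin and at 6.50 in sham. It was at 3.64, 3.47 and 5.24 with DOC and at 4.55, 5.80 and 5.21 with TGF-β1. Apart from albumin at 8 h, every treated array was below sham, DOC at 24 h by −3.03.

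Irf1 was at 5.48, 5.24 and 4.80 over the times of albumin and at 3.49 in sham. It was at 5.05, 5.61 and 3.83 with DOC and at 4.79, 3.86 and 4.03 with TGF-β1. All 9 treated arrays were above sham, whose signal was below the floor. Irf9 was at 7.50, 7.99 and 7.35 with albumin, 6.02, 6.90 and 7.76 with DOC, 6.69, 7.79 and 7.53 with TGF-β1, and 6.89 in sham. Stat2 was at 6.53, 6.90 and 6.39 with albumin, 5.79, 6.07 and 6.58 with DOC, 5.86, 6.37 and 6.75 with TGF-β1, and 6.28 in sham. For both, the early DOC and TGF-β1 arrays were below sham and the 48 h arrays above it. With the other probe set of Stat2, TGF-β1 at 8 h was above sham, at 6.28 against 6.14.

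**Figure D2:**
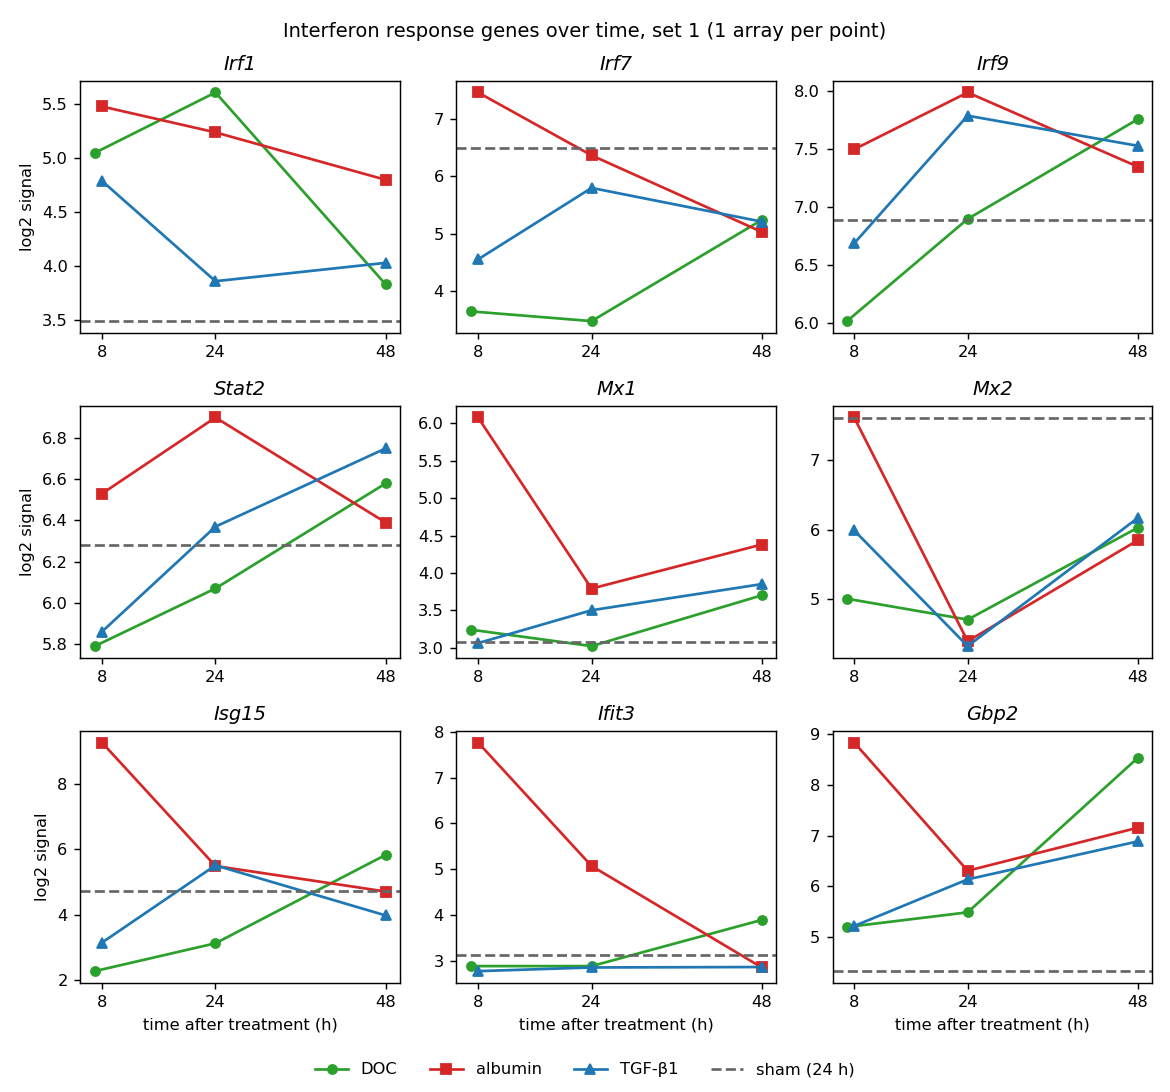
Log2 signal of the 9 genes in set 1 against time after treatment in hours, 1 array per point; the dashed line is the sham array at 24 h and DOC is drawn at 7 h. Isg15, Ifit3, Mx1 and Gbp2 show their highest signal with albumin at 8 h, and Mx2 lies below sham at all points but that one with the probe set drawn, and above it at all points with its other probe set.

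Counted by array, albumin at 8 h had all 9 genes above sham, with a median of 1.99. At least 2-fold higher were 5 (Irf1, Mx1, Isg15, Ifit3 and Gbp2), where 3.33% of all genes were. Of these, Mx1 and Ifit3 were above the floor in set 1 on albumin arrays only. At 24 h albumin had 4 higher and 1 lower by at least 2-fold, where 4.86% and 2.53% of genes were, and at 48 h 3 higher and 2 lower (5.95% and 3.23% of genes). DOC at 7 h had 1 higher and 3 lower (4.19% and 4.34%), at 24 h 2 higher and 3 lower (6.39% and 4.95%), and at 48 h 2 of each (5.70% and 4.10%). TGF-β1 had 1 higher and 3 lower at 8 h (2.58% and 1.07%), 1 of each at 24 h (2.66% and 1.23%), and 1 higher and 2 lower at 48 h (5.40% and 1.30%). Albumin at 8 h was thus the array of set 1 on which none of the 9 genes was below sham.

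The mean of the neutrophil markers was highest on the same array here, though not each marker was. That mean log2 signal was 5.84 with albumin at 8 h, the highest of set 1, 4.94 and 3.87 with albumin at 24 and 48 h, 3.73 to 4.65 with TGF-β1, 4.03 to 4.25 with DOC, and 2.80 in sham. S100a8 was at 8.75 and S100a9 at 11.02 with albumin at 8 h. Csf3r, Mmp8 and Ly6g6c were below 4 on all 10 arrays, so that 3 of the 6 measured markers carried the signal. The third, Lcn2, which reactive astrocytes also make, was at 7.34 with albumin at 8 h, below its 9.27 with albumin at 24 h, 8.80 with DOC at 48 h, 8.71 with TGF-β1 at 48 h and 7.80 with DOC at 24 h. With TGF-β1 at 8 h, where S100a9 was at 9.04, Isg15 and Ifit3 were below the floor. Microglia and macrophage markers averaged 5.77 in sham and 5.33 to 7.67 on the treated arrays. The part of these cells was not tested.

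**Figure D3:**
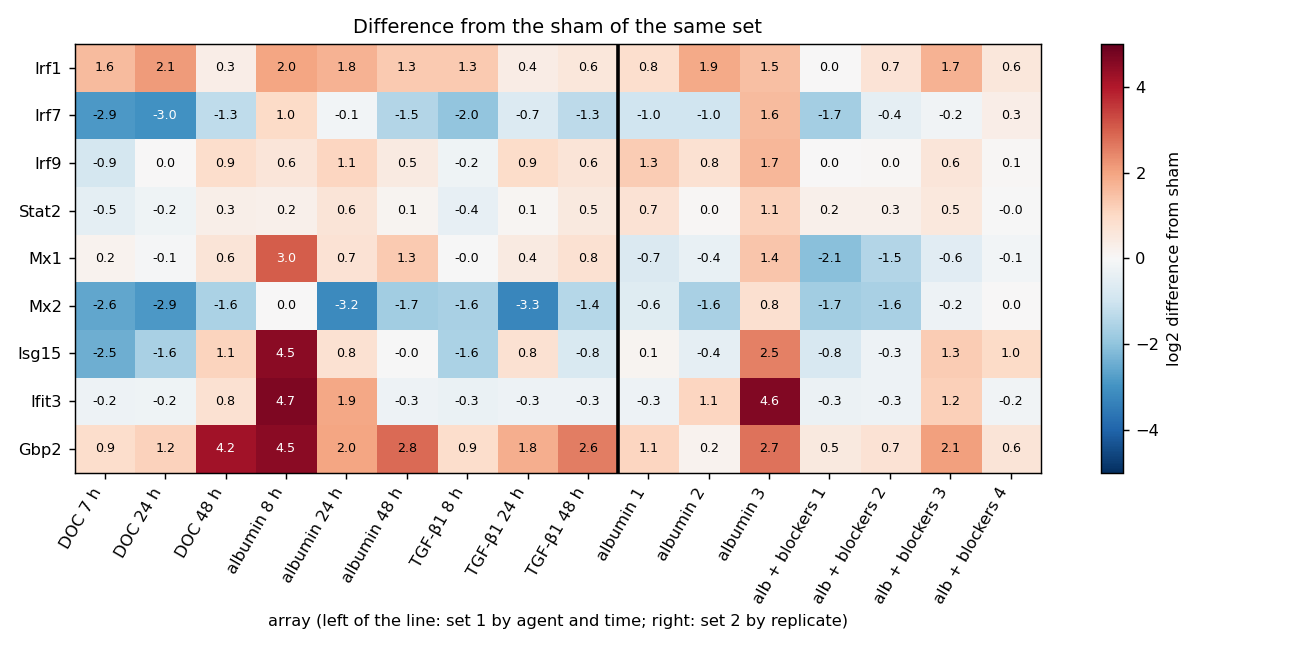
Log2 difference of each gene from the sham of its own set on every treated array, with set 1 by agent and time left of the line and set 2 by replicate right of it; red is higher and blue lower than sham. Albumin at 8 h in set 1 and albumin replicate 3 in set 2 are the columns with all 9 genes above sham.

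Set against the lone sham, the mean of the 3 times of an agent gave no call for any of the 9 genes, where 0.469% of genes passed for DOC, 0.369% for albumin and 0% for TGF-β1. These 3 comparisons share the sham array, and the fit gives it the spread of the treated arrays. For albumin, 2 genes had an unadjusted p under 0.05, where 11.9% of genes did: Irf1 with a difference of 1.69 ± 0.48 (SE, n = 3 against 1; adjusted p = 0.226) and Gbp2 with 3.11 ± 1.22 (adjusted p = 0.389). The median difference was 1.68, the value of Mx1, against −0.02 for all genes. Without the 7 and 8 h arrays it was 0.37, over the 7 genes that were still tested. With the filter on a mean log2 signal above 5 it was 0.33, over 5 genes. Mx1 and Ifit3 were above the floor in set 1 on 2 albumin arrays only, so the main filter favoured an albumin-high value for both. In the fit of all 19 arrays Irf1 passed for albumin, with 1.44 ± 0.38 (adjusted p = 0.0435). There 373 of 9841 genes were called higher and 195 lower. That fit has 1 albumin and 1 sham term for both sets, so this call is not separate from the one in set 2.

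The other albumin differences were 2.11 ± 1.41 in Ifit3, 1.75 ± 2.03 in Isg15, 1.68 ± 0.72 in Mx1 and −1.65 ± 0.75 in Mx2, with adjusted p of 0.424 to 0.823. The interferon complex genes had less, with 0.72 ± 0.47 in Irf9 and 0.33 ± 0.32 in Stat2, and Irf7 had −0.22 ± 1.05. Wholly above sham were 5 genes (Irf1, Irf9, Stat2, Mx1 and Gbp2), where 26.9% of all genes were.

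For DOC, Irf1 (1.34 ± 0.48, adjusted p = 0.209) and Mx2 (−2.35 ± 0.75, adjusted p = 0.177) had an unadjusted p under 0.05, where 18.7% of genes did. Irf7 had −2.39 ± 1.05 (adjusted p = 0.283), Gbp2 2.08 ± 1.22 (adjusted p = 0.41) and Isg15 −0.99 ± 2.03 (adjusted p = 0.836), and the 4 others lay between −0.13 and 0.25. Irf1 and Gbp2 were wholly above sham, as 23.7% of genes were, and Irf7 and Mx2 wholly below, as 29.1% were. For TGF-β1, Mx2 alone had an unadjusted p under 0.05 (−2.10 ± 0.75, adjusted p = 0.536), where 7.49% of genes did. Gbp2 had 1.75 ± 1.22, Irf7 −1.32 ± 1.05 and Irf1 0.74 ± 0.48, with adjusted p of 0.896 to 0.95. Wholly above sham were Irf1 and Gbp2, as 28.7% of genes were, and wholly below were Irf7, Mx2 and Ifit3, as 24.6% were. With the other probe set of Stat2, every TGF-β1 array, at 6.28, 6.61 and 6.42, was also above sham, at 6.14. For Ifit3, sham at 3.12 and TGF-β1 at 2.77 to 2.86 were all under the floor. These Mx2 values are from 1 of its 2 probe sets, and the other gave the opposite sign against sham.

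Agents were then compared with each other over the 3 times, among the 9 treated arrays. Albumin was above DOC in all 9 genes, as in 54.9% of all genes, with a median of 1.03 against 0.03 for all genes, and none passed, where 0.00998% of genes did. Irf7 (2.17 ± 0.74, adjusted p = 0.645) and Mx1 (1.43 ± 0.51, adjusted p = 0.645) had an unadjusted p under 0.05, where 7.48% of genes did. Mx1 was above the floor in set 1 on 2 arrays only, both with albumin, so it entered the test through the group in which it is high. The widest difference was in Isg15, with 2.74 ± 1.44 (adjusted p = 0.697). Without the 7 and 8 h arrays the median was 0.33, with 5 of the 7 genes tested above 0.

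TGF-β1 was above albumin in none of the 9 genes, where it was in 55.6% of all genes, with a median of −1.10, and none passed, where 0% of genes did. Irf1 (−0.95 ± 0.34, adjusted p = 0.547), Mx1 (−1.28 ± 0.51, adjusted p = 0.56) and Ifit3 (−2.40 ± 0.99, adjusted p = 0.56) had an unadjusted p under 0.05, where 8.75% of genes did. Ifit3, like Mx1, was above the floor on 2 albumin arrays only, so the filter itself favoured an albumin-high value for both. The median was −0.19 without the 7 and 8 h arrays. Irf1 was the gene whose 3 TGF-β1 arrays all lay below its 3 albumin arrays, as 6.58% of genes did. Mx1 was the gene whose albumin arrays all lay above its DOC arrays, as 4.37% did. Both margins were narrow. For Irf1 the nearest arrays were TGF-β1 at 8 h, at 4.79, and albumin at 48 h, at 4.80. For Mx1 they were albumin at 24 h, at 3.79, and DOC at 48 h, at 3.70, both under the floor. Time by time, albumin was above TGF-β1 at all 3 times for Irf1, Mx1 and Gbp2, where 17.1% of genes were, and above DOC at all 3 times for Mx1, where 15.2% were. Between TGF-β1 and DOC no gene of the 9 passed and none had an unadjusted p under 0.05, where 0.0299% and 20.8% of genes did.

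Times were compared over the 3 agents. From 7 and 8 h to 24 h no gene of the 9 passed, where 0.799% of genes did. Irf9 was higher by 0.83 ± 0.33 (adjusted p = 0.333) and Mx2 differed by −1.72 ± 0.53 (adjusted p = 0.228), the 2 genes with an unadjusted p under 0.05, where 14.1% of genes had one. From 24 to 48 h, where 1.41% of genes passed and none of the 9 did, Mx2 alone had an unadjusted p under 0.05, with 1.54 ± 0.53 (adjusted p = 0.231), where 16.3% of genes had one. From 7 and 8 h to 48 h, where 5.09% of genes passed and again none of the 9, Irf9 (0.81 ± 0.33, adjusted p = 0.23) and Irf1 (−0.89 ± 0.34, adjusted p = 0.197) had an unadjusted p under 0.05, where 20.7% of genes did. With the other Mx2 probe set both Mx2 directions turned, to 0.06 from the early arrays to 24 h and −0.31 from 24 to 48 h.

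The 2 probe sets of a gene were compared for the 3 genes that have them. Those of Irf9 (1383448_at, used here, and 1374627_at) had a correlation of 0.91 over the 10 arrays of set 1 and 0.97 over the 9 of set 2. Those of Stat2 (1389571_at, used here, and 1373670_at) had 0.67 and 0.90. Those of Mx2 (1387283_at, used here, and 1369202_at) had −0.00 and 0.10, so they do not report the same signal. These correlations are descriptions over arrays that share a normalisation.

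The second Mx2 probe set was at 2.56, 2.67 and 10.31 in the 3 albumin rats of set 2, at 4.61, 8.18, 2.67 and 2.57 with the blockers, and at 2.60 and 2.69 in sham. It was below the floor on 6 of 9 arrays and highest on albumin replicate 3, like the first. In set 1 it was at 2.54 in sham and at 8.62, 6.26 and 5.13 over the times of albumin, 3.62, 4.08 and 6.16 with DOC, and 4.88, 6.98 and 5.09 with TGF-β1. With this probe set every treated array of set 1 was above sham, and the albumin array at 8 h was again the highest. The difference from sham in set 1 was then 4.13 ± 1.56 for albumin (adjusted p = 0.355), 3.11 ± 1.56 for TGF-β1 (adjusted p = 0.772) and 2.08 ± 1.56 for DOC (adjusted p = 0.509), each opposite in sign to the first probe set. In set 2 the albumin difference was 2.54 ± 2.48 (adjusted p = 0.563). The direction of Mx2 against sham therefore depends on the probe set.

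**Figure D4:**
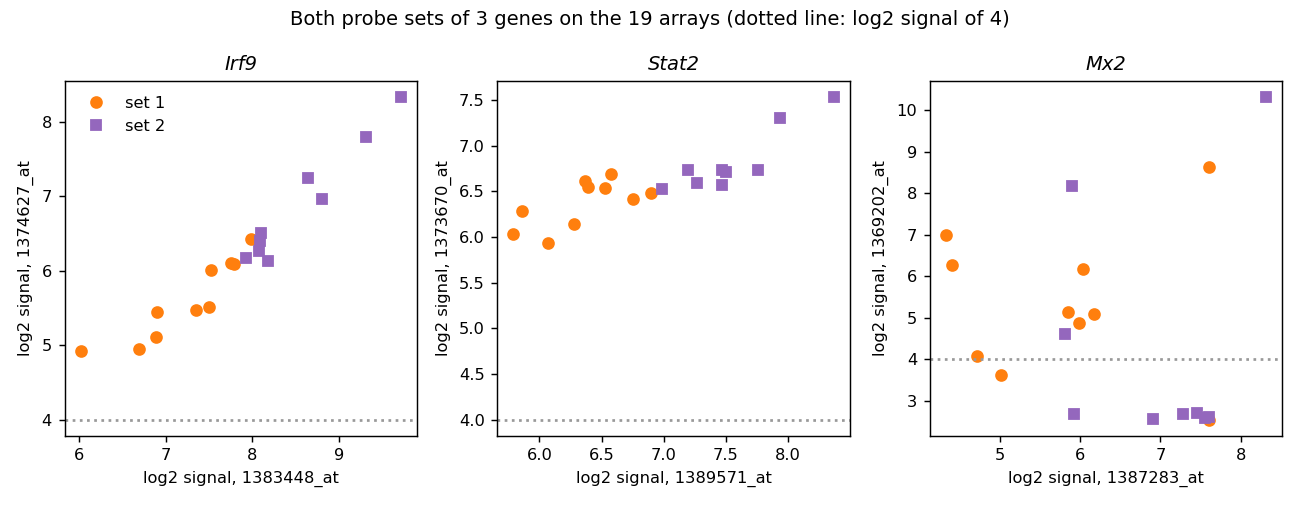
Log2 signals of both probe sets of Irf9, Stat2 and Mx2 on the 19 arrays, the probe set used here on the horizontal axis and the other on the vertical axis, set 1 as circles and set 2 as squares. The points of Irf9 and Stat2 rise together, while those of Mx2 scatter, with many arrays below the dotted floor at 4.

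Over the arrays of a set, the genes varied together to unequal degrees. Over all 36 pairs the correlation ran from −0.25 to 0.89 in set 1 (10 arrays, median 0.46) and from 0.02 to 0.91 in set 2 (9 arrays, median 0.64). Isg15 was the most closely tied, with a median of 0.70 to the 8 other genes in set 1 and 0.78 in set 2, and with Ifit3 it had 0.86 and 0.81. Irf9 and Stat2, partners in 1 complex, had 0.89 and 0.85. Irf1 stood apart, with a median of −0.07 in set 1 and 0.45 in set 2. These values describe arrays of shared treatment.

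By a rule on the smaller of the correlations in the 2 sets with the mean of the 9 genes, over 9841 genes, the 5 most alike other genes were Rsad2, Rig1, Parp14, Cxcl11 and Usp18. Rsad2, which encodes viperin, an enzyme that blocks viral RNA synthesis, had 0.88 and 0.93 in sets 1 and 2. Its log2 signals were 6.46 in the set 1 sham, 11.34 with albumin at 8 h, 6.67 at 24 h and 5.90 at 48 h, and in set 2 7.90, 7.33 and 9.32 with albumin against 6.93 and 6.94 in sham. It peaked on the same 2 arrays as the effectors. All 5 genes were picked for following the mean of the 9 over these same arrays, so the choice itself favoured shared peaks. Rig1, the RNA sensor RIG-I, had 0.94 and 0.87, and Parp14, an ADP-ribosyltransferase, 0.93 and 0.86. Cxcl11, a chemokine for T cells, had 0.87 and 0.84 and was at 8.98 with albumin at 8 h against 2.24 in sham. Usp18, which removes ISG15 from proteins, had 0.86 and 0.84, with 7.23 with albumin at 8 h against 5.75 in sham and 7.32 in albumin replicate 3 against 5.38 and 4.98 in sham.

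Of 7 lists of other genes of the pathway, 83 genes were measured, of which 60 were tested in set 2 and 57 in set 1. In set 2 albumin against sham 1 of the 60 passed, where 1.33% of all genes did. It was Socs3, the feedback inhibitor of cytokine receptors, which rose by 4.01 ± 0.71 (adjusted p = 0.047), or by 2.35 from the floor of 4, since both sham signals lay below it. Socs3 was at 5.38, 7.65 and 6.03 in the albumin rats and at 2.33 and 2.35 in sham, and its highest rat was replicate 2, not replicate 3. With the blockers it was at 2.36, 2.25, 3.98 and 2.23, so in set 2 it was above the floor on albumin arrays only. Socs3 thus entered the test through the group in which it is high, and the filter favoured an albumin-high value. The call held in 7 of 16 alternatives, whose differences were 3.36 to 4.49 and adjusted p 0.0383 to 0.316; it was lost without albumin replicate 2, albumin replicate 3, blockers replicate 1, blockers replicate 2 or either sham array, with no filter, and with only the arrays of the 2 groups. With the replicate block it was lost too, at 3.81 (adjusted p = 0.104). Against albumin alone, none passed with the blockers, and Socs3 had the smallest p with −3.65 ± 0.59 (adjusted p = 0.0803). Irf1 likewise peaked in albumin replicate 2. In set 1 albumin against sham 1 of 57 passed, where 0.369% of all genes did. It was Ifitm1, a membrane protein that hinders viral entry, which rose by 4.80 ± 0.58 (adjusted p = 0.0385), or by 2.76 from the floor, since the sham signal of 1.97 lay below it. That call held in 5 of 10 alternatives (2.65 to 5.47, adjusted p 0.0177 to 0.127) and was lost without the 24 h or the 48 h arrays, with no filter, with the mean of its probe sets and with all 19 arrays. In set 2 the Ifitm1 signals of albumin, 7.79, 7.97 and 8.44, overlapped those of sham, 6.07 and 7.97.

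By array, the 22 other antiviral effectors tested had 13 genes at least 2-fold above sham with albumin at 8 h and none lower (median 1.32), and 11 with none lower in albumin replicate 3 (median 1.01). On those arrays 3.33% and 3.99% of all genes were that much higher and 1.46% and 1.82% lower. In albumin replicates 1 and 2 they had 1 and 2 higher, and 1 and 3 lower, where 3.20% and 8.39% of all genes were higher and 1.78% and 9.05% lower. The 4 other interferon-inducible GTPases (median 2.51) were all at least 2-fold higher with albumin at 8 h, among them Gbp7, at 7.54 against 3.35 in sham, and 3 of 4 were in albumin replicate 3 (median 1.77). Both lists also had more in blockers replicate 3 (6 of 22 and 3 of 4) than in the other blocker arrays (up to 1 of each), where 2.38% of all genes were that much higher in replicate 3. By median, the lists of upstream genes were closer to sham. Interferon ligands and receptors had medians of 0.11 and 0.20 on albumin at 8 h and in albumin replicate 3. Other JAK-STAT and IRF factors had 0.03 and 0.18, and nucleic acid sensors and adaptors 0.0031 and 0.39. Single upstream genes were at least 2-fold higher there, where 3.33% and 3.99% of all genes were. They were 2 of 6 sensors and adaptors on each array, and 2 of 9 and 1 of 9 JAK-STAT and IRF factors. No ligand or receptor gene was that much higher. Of 9 measured ligand and receptor genes, 5 were tested in set 1 and 6 in set 2, and none passed in any of the 12 comparisons. The ones left out had low signals, so an interferon transcript at a low level would not be seen.

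**Figure D5:**
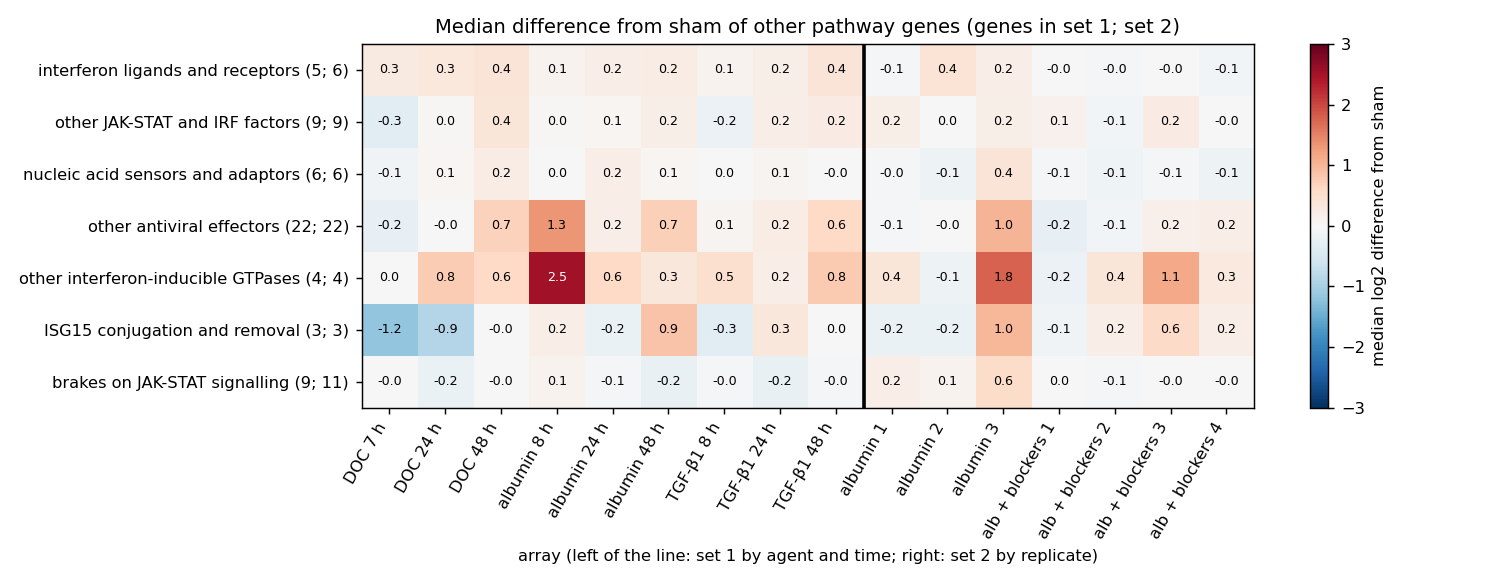
Median log2 difference from the sham of the same set for 7 lists of other pathway genes, on each treated array; the numbers of genes tested in set 1 and set 2 are in parentheses. Other antiviral effectors and other interferon-inducible GTPases are highest with albumin at 8 h (1.32 and 2.51) and in albumin replicate 3 (1.01 and 1.77).

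Some of the other pathway genes rose late. From 7 and 8 h to 48 h, 7 of 57 rose and none fell, where 3.91% of all genes rose. Ifitm1 rose by 3.92 ± 0.41 (adjusted p = 0.00483), Ifitm2 by 1.71 ± 0.28 (adjusted p = 0.0211) and Ifi27l2b by 1.11 ± 0.21 (adjusted p = 0.0337). Epsti1 rose (adjusted p = 0.00688) from a level of 3.68 to 3.78 over the agents at 7 and 8 h to one of 4.60 to 4.83 at 48 h. At 24 h it was at 3.59 to 3.82 and in sham at 3.39, so in set 1 it was above the floor at 48 h only. Epsti1 thus entered the test through the time at which it is high, and the filter favoured a rise to 48 h from either earlier time. Ube2l6, the enzyme that conjugates ISG15, rose by 1.36 ± 0.21 (adjusted p = 0.017), and Ptpn6, a phosphatase of blood cells and microglia, by 1.64 ± 0.30 (adjusted p = 0.0279). Ifitm1 was at 3.17, 6.10 and 7.07 with DOC, 5.43, 6.49 and 8.38 with albumin, 2.97, 5.26 and 7.87 with TGF-β1 and 1.97 in sham, so it was higher at each later time under every agent. That order is unlike the one of Isg15, Ifit3 and Mx1, which were highest at 8 h with albumin. From 24 to 48 h 2 of 57 rose, where 1.30% of all genes did: Epsti1 by 1.02 ± 0.12 (adjusted p = 0.0124) and Ifi27l2b by 1.26 ± 0.21 (adjusted p = 0.0458). All the named late rises were positive in every alternative run, with adjusted p up to 0.247. Those of Epsti1 and Ifi27l2b from 24 to 48 h were lost without any 1 agent, and that of Ifi27l2b held in only 3 of 9 alternatives, being lost also with no filter, with the filter on the mean and with its more variable probe set. From 7 and 8 h to 48 h, the rises of Ifitm2, Ifi27l2b, Ube2l6 and Ptpn6 were lost with no filter. Those of Ifitm2, Ifi27l2b and Ube2l6 were lost without the DOC arrays, and those of Epsti1, Ifi27l2b and Ptpn6 without the albumin arrays. Ifitm1 held in 8 of 9 alternatives, Ifi27l2b in 5 of 9 and Ube2l6 in 5 of 8. Each named rise from 7 and 8 h to 48 h was lost without the TGF-β1 arrays. Calls were then few among all genes, with 8 of 9933 higher and 0 lower, against 392 and 118 of 10018 with those arrays. From 24 to 48 h no gene at all passed without them. Microglia and macrophage markers, whose cells also make several of these genes, were highest at 48 h under each agent, at 7.25 with DOC, 7.67 with albumin and 7.46 with TGF-β1, against 5.77 in sham. From 7 and 8 h to 48 h, 7 of 10 of these markers rose, as did 4 of 7 meningeal markers (median 1.49) and 3 of 7 endothelium markers (median 0.0042). The part of these cells was not tested.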

How the data were processed

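Total RNA from 19 samples of cortex was hybridised to Affymetrix rat arrays. The deposited values are log2 signals. Per the submitters' processing notes they are the authors' output of GCRMA, which corrects background, normalises and sums up the probes of a probe set; its version is not given in the sources used here, nor whether both sets were normalised together. Of 31099 probe sets, 20826 named 1 gene, 436 several and 9780 none, and 57 were controls; symbols were updated through RefSeq GRCr8. Genes above log2 4 on at least 2 arrays of a set were tested: 10018 in set 1 and 10329 in set 2. Fits used limma 3.58.1 in R 4.3.3 (lmFit, eBayes, two-sided, Benjamini-Hochberg over all genes tested, adjusted p under 0.05). The groups of set 2 shared 1 spread; set 1 had additive terms for agent and time. SE is limma's moderated standard error. The fit was tested on simulated data. The 9 genes, the lists and the tests were chosen with earlier results of these data known. All 9 genes are named throughout; of other lists, up to 4 genes that passed, or the smallest p, were named where shown, and Gbp7, Cxcl11 and Usp18 levels were chosen after their values were seen. Ddx58, Samd9l and Tmem173 were read as Rig1, Samd9l1 and Sting1. Alternatives were other filters, probe set rules, a quantile normalisation, a trended robust prior, other array sets, a replicate block, and leaving out arrays, times or agents.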

Additional observations from a re-analysis of the deposited data

Results flagged for a closer look

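In the 4 blocker arrays of set 2, replicate 3 lay far above the other 3 for 3 of the 9 genes: Irf9 at 8.65, Ifit3 at 4.26 and Gbp2 at 9.18. The gap to the next array took 0.963, 0.922 and 0.858 of the group's range. Chance flags about 1 in 20 such groups, 9 genes were looked at, and genes on 1 array are not independent. Mean neutrophil markers were also highest of that group on replicate 3, at 6.02, and their part was not tested.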

How the results depend on the processing

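Of 138 counts of called genes among the 9, over the 12 comparisons and their alternatives, 135 stayed at 0. The count for albumin against sham in set 2 was 2 with all 19 arrays in 1 fit (Irf1 and Irf9), and ranged from 0 to 1 when each array was left out, 1 being Irf9 without albumin replicate 2; in set 1 albumin it was 1 with all 19 arrays (Irf1). Both counts with all 19 arrays come from 1 fit, in which the sets share the albumin and sham terms, so they are not separate. In that fit, of 9841 genes, 1195 passed for albumin in set 2 and 568 for albumin in set 1. Why the counts moved was not tested. Over all genes the count in set 2 albumin against sham was 137 and ran from 1 (without sham replicate 2) to 191 (without blockers replicate 4) over arrays left out, and to 1195 with all 19 arrays in 1 fit. Over all alternatives it was 0 to 86 against 2 for blockers against albumin, 5 to 568 against 37 for albumin in set 1, and 8 to 620 against 510 for 48 h against 7 and 8 h.

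Of 1050 alternative values for single genes of the 9, 52 reversed in sign, none of them past the threshold where tested. With Mx2's more variable probe set the difference was 2.54 for albumin and 1.87 for blockers against sham in set 2. In set 1 it was 2.08 for DOC, 4.13 for albumin, 3.11 for TGF-β1, 0.06 for 24 h against 7 and 8 h, and −0.31 for 48 against 24 h. On single arrays it was 1.09, 1.54 and 3.63 with DOC at 7, 24 and 48 h, 3.72 and 2.59 with albumin at 24 and 48 h, and 2.34, 4.44 and 2.55 with TGF-β1 at 8, 24 and 48 h. With the mean of its probe sets Mx2 had 1.03 and 0.49 in set 2 for albumin and blockers against sham, and in set 1 1.24 for albumin and 0.50 for TGF-β1. Its single arrays were then at 1.03 (DOC 48 h), 0.26 and 0.42 (albumin 24 and 48 h), and 0.37, 0.58 and 0.56 (TGF-β1 8, 24 and 48 h). With all 19 arrays Mx1 had −0.24 for DOC and −0.09 for TGF-β1.

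When arrays of set 2 were left out in turn, albumin against sham ranged from −0.99 to 0.30 in Irf7, −0.63 to 0.81 in Mx1, −1.11 to 0.09 in Mx2 and −0.14 to 1.34 in Isg15. Blockers against albumin ranged from −0.80 to 0.50 in Irf7, −0.98 to 0.22 in Mx2, −1.05 to 0.43 in Isg15 and −0.93 to 0.36 in Gbp2, and blockers against sham from −0.04 to 0.66 in Isg15 and −0.25 to 0.29 in Ifit3. In set 1, DOC against sham was −0.0039 and −0.43 in Irf9 without the 24 h and the 48 h arrays, 0.04 in Stat2 without those at 7 and 8 h, and −0.24 in Ifit3 without those at 48 h. TGF-β1 against sham was 0.01 in Isg15 without the arrays at 8 h and −0.16 in Stat2 without those at 48 h, and albumin 0.41 in Irf7 without those at 48 h.

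The replicate numbers were not taken to pair rats, since deviations of same-numbered arrays had correlations of −0.136 to 0.223. With the replicate block no gene of the 9 passed in set 2, where 0 passed without it, and Mx1 had −0.44 for albumin, Isg15 −0.68 and Ifit3 −0.74 for blockers against sham.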
